A study of Mus musculus with 2 samples.

Results

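The genes described here are 10 members of the BCL-2 family that decide whether a cell lives or dies through its mitochondria, out of 21755 protein-coding genes on the autosomes and the X chromosome (GENCODE M21, mm10). They were chosen by name. Of them 3 are pro-survival genes (Bcl2, Bcl2l1 and Mcl1), 5 encode BH3-only proteins that start cell death (Bcl2l11, Bbc3, Pmaip1, Bid and Bad) and 2 encode the effectors (Bax and Bak1). Each gene was given a window that reached 50 kb beyond the gene body at both ends, and every peak, every run of significant cutting and every footprint in a window was taken by its position. The data are DNase-seq, which maps where DNase I cuts open chromatin, from whole thymus of 2 female B6CASTF1/J mice aged 36 days with 1 library per mouse. These mice are F1 hybrids of C57BL/6J and CAST/EiJ. Both animals belong to 1 untreated group, so no test between groups exists and every value is given for mouse 1 and mouse 2 separately. Peak signal is the height that the authors deposited with each peak, in units normalised for depth. A peak reports how accessible DNA is in the tissue as a whole, so a site open in few cells and a site weakly open in many cannot be told apart, and it is not a measure of mRNA.

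BCL-2 family proteins meet at the outer mitochondrial membrane. The effectors BAX and BAK make pores that release cytochrome c, the pro-survival proteins hold the effectors and the BH3-only proteins in check, and BH3-only proteins carry death signals by binding pro-survival proteins or by activating the effectors. Most thymocytes die in the thymus. BIM, the product of Bcl2l11, is needed for the death of self-reactive thymocytes in negative selection, and BCL-XL, the product of Bcl2l1, sustains double-positive thymocytes.

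All 10 genes had a peak within 1000 bp of an annotated start in both mice. The same was true of 56.6% of all protein-coding genes. The sequences of 6 of these promoter peaks follow, because they include the strongest member promoter (Bcl2l1), the strongest of the BH3-only genes (Bcl2l11) and the 5 promoters with matches to the SP/KLF motif. They are mm10 reference sequence, written 5′ to 3′ on the strand of the gene and stopping where annotated exons begin. The Bid match, at 120916850 to 120916858, runs past that point, so the printed Bid sequence ends inside it, with the letters GGGGC. Capitals mark bases that lay inside a footprint, a short stretch protected from cutting, in both mice.
Bcl2l1 promoter, chr2:152831181-152831480, - strand: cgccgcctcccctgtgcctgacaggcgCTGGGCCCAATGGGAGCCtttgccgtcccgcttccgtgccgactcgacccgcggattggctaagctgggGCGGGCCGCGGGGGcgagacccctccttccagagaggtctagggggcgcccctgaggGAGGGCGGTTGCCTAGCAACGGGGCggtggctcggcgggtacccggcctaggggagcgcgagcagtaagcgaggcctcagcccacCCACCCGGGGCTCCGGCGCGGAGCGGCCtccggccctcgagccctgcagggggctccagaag
Bcl2l11 promoter, chr2:128125821-128126037, + strand: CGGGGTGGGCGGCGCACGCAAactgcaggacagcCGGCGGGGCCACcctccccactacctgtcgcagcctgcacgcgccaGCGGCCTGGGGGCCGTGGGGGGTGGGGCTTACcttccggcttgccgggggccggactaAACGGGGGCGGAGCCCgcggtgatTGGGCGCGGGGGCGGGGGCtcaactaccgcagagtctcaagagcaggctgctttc
Bbc3 promoter, chr7:16309341-16309615, + strand: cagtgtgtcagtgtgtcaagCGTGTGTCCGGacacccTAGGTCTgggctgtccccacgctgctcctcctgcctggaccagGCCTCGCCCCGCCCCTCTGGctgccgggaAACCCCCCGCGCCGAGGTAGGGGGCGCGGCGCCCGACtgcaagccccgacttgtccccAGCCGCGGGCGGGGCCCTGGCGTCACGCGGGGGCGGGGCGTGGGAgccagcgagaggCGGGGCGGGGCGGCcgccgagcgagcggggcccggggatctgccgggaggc
Bid promoter, chr6:120916854-120916980, - strand: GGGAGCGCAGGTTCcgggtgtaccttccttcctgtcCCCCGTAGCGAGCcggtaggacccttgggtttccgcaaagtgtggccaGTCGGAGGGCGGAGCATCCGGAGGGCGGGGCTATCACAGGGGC
Bax promoter, chr7:45466899-45467000, - strand: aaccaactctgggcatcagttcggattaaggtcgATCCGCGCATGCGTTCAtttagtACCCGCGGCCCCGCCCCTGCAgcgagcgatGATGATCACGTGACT
Bcl2 promoter, chr1:106714275-106714520, - strand: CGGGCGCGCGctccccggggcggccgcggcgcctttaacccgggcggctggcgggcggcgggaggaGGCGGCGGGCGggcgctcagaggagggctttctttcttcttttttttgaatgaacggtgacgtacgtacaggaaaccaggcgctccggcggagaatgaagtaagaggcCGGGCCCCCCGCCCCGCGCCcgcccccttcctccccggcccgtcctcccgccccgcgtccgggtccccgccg

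The next 5 sequences are accessible sites away from any annotated start, shown because they were the strongest such site of Bcl2l1, Mcl1, Bcl2l11 and Bcl2 in the mean of both mice or, for the second Mcl1 site, because footprints of both mice covered an E-box there. They carry the same marks and lie in introns of Bcl2l1, Bcl2l11 and Bcl2 and between genes downstream of Mcl1.
Bcl2l1 intron, chr2:152816361-152816640, - strand: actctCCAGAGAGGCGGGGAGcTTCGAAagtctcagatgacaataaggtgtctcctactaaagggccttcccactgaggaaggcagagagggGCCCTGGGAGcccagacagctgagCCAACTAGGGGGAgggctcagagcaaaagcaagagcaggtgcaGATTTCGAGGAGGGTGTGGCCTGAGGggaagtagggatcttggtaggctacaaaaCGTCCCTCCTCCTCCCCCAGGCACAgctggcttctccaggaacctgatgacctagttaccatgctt
Mcl1 downstream, distal site, chr3:95674241-95674500, + strand: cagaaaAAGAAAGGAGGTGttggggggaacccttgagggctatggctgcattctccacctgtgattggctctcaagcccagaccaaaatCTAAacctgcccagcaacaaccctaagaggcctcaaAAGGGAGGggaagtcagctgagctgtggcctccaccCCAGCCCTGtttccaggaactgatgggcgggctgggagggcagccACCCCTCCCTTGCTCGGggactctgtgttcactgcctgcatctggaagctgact
Mcl1 downstream, proximal site, chr3:95668701-95668940, + strand: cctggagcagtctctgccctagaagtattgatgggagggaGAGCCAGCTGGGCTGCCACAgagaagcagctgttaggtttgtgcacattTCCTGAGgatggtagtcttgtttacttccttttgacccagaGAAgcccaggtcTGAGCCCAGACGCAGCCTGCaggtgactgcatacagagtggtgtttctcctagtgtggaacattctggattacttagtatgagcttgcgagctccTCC
Bcl2l11 intron, chr2:128152821-128153080, + strand: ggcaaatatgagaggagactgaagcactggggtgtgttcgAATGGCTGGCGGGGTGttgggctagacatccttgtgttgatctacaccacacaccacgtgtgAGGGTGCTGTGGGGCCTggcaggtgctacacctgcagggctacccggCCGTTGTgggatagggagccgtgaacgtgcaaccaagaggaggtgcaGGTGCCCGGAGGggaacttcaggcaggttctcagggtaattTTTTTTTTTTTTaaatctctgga
Bcl2 intron, chr1:106688201-106688440, - strand: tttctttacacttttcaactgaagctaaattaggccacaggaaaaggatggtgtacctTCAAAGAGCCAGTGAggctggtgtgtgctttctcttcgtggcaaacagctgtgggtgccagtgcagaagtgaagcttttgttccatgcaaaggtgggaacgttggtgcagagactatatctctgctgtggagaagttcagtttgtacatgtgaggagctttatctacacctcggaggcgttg

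Motif letters were searched on both strands in the 300 bases centred on each site, for 21 motifs, in the 9 member promoter peaks and the 23 member sites away from starts for which sequence is reported. The SP/KLF letters GGGGCGGGG were present in 5 of the 9 promoter peaks (55.6%), those of Bcl2l11, Bbc3, Bid, Bax and Bcl2, and in 17.2% of the 21605 promoter sites found in both mice across the genome. In all 5 the centre of at least 1 match lay in a footprint of each mouse. The Bbc3 promoter held 3 such matches. The 9 peaks, each the strongest promoter site of its gene in the mean of both mice, had a GC content of 61.9% to 74.7%. In mouse 1 alone another promoter site was higher at Bbc3 (GC content 72.5%) and at Bak1 (55.7%). Those sites were not searched. The 21605 sites were not matched to them for GC content or strength, so how far the shares reflect GC content was not tested. The same holds for the sites away from starts. NF-Y letters, CCAAT, were present in 3 of 9 (33.3%) against 31.5% of all shared promoter sites, with the match centre in footprints of both mice at Bcl2l1 and Bcl2l11. The Bax promoter also held the NRF1 letters GCGCATGCG and the MYC/USF E-box CACGTG in footprints of both mice. NRF1 letters were in 1 of 9 member promoters (11.1%) and in 2.57% of all shared promoter sites, and the MYC/USF E-box was in 1 of 9 and in 9.64%. An NF-kB match in the Bbc3 promoter was footprinted in both mice, 1 of 9 against 6.35%. The p53 half-site, searched because Bbc3 and Bax are textbook targets of p53, had no match in the 9 promoter peaks and one in 7.30% of all shared promoter sites. The Pmaip1 sites were not searched. That count says only that these letters are not in these windows. E2F letters, GGCGGGAA, were in 0 of the 9 promoter peaks and in 3.65% of all shared promoter sites. The SP/KLF and E2F letters overlap in part, and a match is a description of the sequence.

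At the sites away from starts the SP/KLF letters were in 2 of 23 (8.70%) against 3.41%, with the match centre in footprints of both mice in each, upstream of Bbc3 and in an exon of Plcb3 in the Bad window. NF-Y letters were in 7 of 23 (30.4%) against 26.4% and the MYC/USF E-box in 4 of 23 (17.4%) against 7.38%, none with its centre in footprints of both mice. The E-protein E-box CAGCTG was in 8 of 23 member sites (34.8%) against 28.4% of the 24981 shared sites of that kind, and at the proximal Mcl1 site its centre was in footprints of both mice. TCF/LEF letters, TTCAAAG, were in 3 of 23 (13.04%) against 7.94%, with the Bcl2 intron match in footprints of both mice. RUNX letters, TGTGGTT, were in 2 of 23 (8.70%) against 12.6%. The CRE letters TGACGTCA were in 1 of 23 against 0.652%, in an exon of Mical3 that lies in the Bid window, and there too the centre was footprinted in both mice.

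Among the pro-survival genes, Bcl2l1 had the strongest promoter of the 10 in both animals and Bcl2 the weakest, by the highest promoter peak of each gene. With all promoter peaks of a gene summed, in the mean of both mice, Bcl2l1 was still highest (63.01), but Bcl2 (9.93) was above Bax (9.54) and Pmaip1 (6.86). The highest promoter peak of Bcl2l1, which encodes BCL-XL (chromosome 2, 152780668 to 152831728, minus strand), had a signal of 18.8 in mouse 1 and 58.3 in mouse 2. It stood at percentile 95.5 and 99.7 of all protein-coding promoters with a peak in that mouse, called open promoters here. Open promoters had a median of 4.94 in mouse 1, with quartiles of 2.28 and 9.18, and a median of 10.4 in mouse 2, with quartiles of 3.47 and 20.5. The Bcl2l1 peak lay 0.397 kb inside the gene from its 5′-most start and 0.219 kb upstream of another of its 9 annotated starts. At the 5′-most start itself, mouse 2 had a peak of 20.6 and mouse 1 had none in either list. Mouse 1 nevertheless had significant cutting over that start and 5 footprints in the stretch, all overlapping footprints of mouse 2. Another peak 1.02 kb inside the gene had signals of 5.18 and 14.1.

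Mcl1 encodes a short-lived pro-survival protein (chromosome 3, 95658788 to 95663176, plus strand). Its promoter peak had a signal of 4.58 in mouse 1, just under the open-promoter median, and 15.7 in mouse 2, above it. A second own-promoter peak 0.723 kb into the gene had 4.38 and 7.29. Bcl2, the founding member of the family (chromosome 1, 106538178 to 106714274, minus strand), had 3.73 and 8.44 at its start, percentiles 39.5 and 43.7. A weaker peak lay 1.66 kb inside (1.30 and 3.08). The accessible region at the Bcl2 start covered 1528 bp in mouse 1 and 1376 bp in mouse 2, against 756 and 1502 bp at Mcl1.

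The BH3-only promoters divided into 4 that were above the open-promoter median in both mice and Pmaip1, which was below it in both. Bcl2l11 (BIM; chromosome 2, 128126038 to 128162547, plus strand) had 10.9 in mouse 1 and 29.2 in mouse 2, and another peak 1.45 kb into the gene had 6.11 and 20.5. Its accessible region was continuous over 2968 bp in mouse 1 and 4439 bp in mouse 2. Bid, whose product is activated when caspase-8 cleaves it (chromosome 6, 120891930 to 120916853, minus strand), had 9.78 and 27.0 in a compact region of 827 and 886 bp. Bad, whose product is held inactive by phosphorylation downstream of growth factors (chromosome 19, 6941861 to 6951899, plus strand), had 10.7 and 26.4. That Bad peak lay 0.63 kb inside the gene and 0.066 kb upstream of a start of the neighbour Gpr137, so it cannot be assigned to Bad alone. The peak over the Bad start, 0.05 kb from it, had 4.89 and 13.2, and this one too was within 1000 bp of a Gpr137 start.

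Bbc3 encodes PUMA (chromosome 7, 16308393 to 16318205, plus strand). No peak of mouse 1 lay at its 5′-most start, where mouse 2 had a peak of 0.816 centred 0.344 kb inside. The 2 strong peaks were at internal starts. One centred 1.14 kb inside had 4.79 in mouse 1 and 20.4 in mouse 2, and one centred 1.75 kb inside had 6.47 and 16.9, so the higher of the pair differed between the mice. In all, 10 sites lay within 1000 bp of an annotated Bbc3 start, more than for any other member, and 9 of them were found in both mice. Pmaip1, which encodes NOXA, had a single promoter site, with 3.77 in mouse 1 and 9.94 in mouse 2 (percentiles 39.9 and 48.5). It covered 941 and 883 bp and held 5 footprints in each mouse, all 5 of which overlapped one in the other animal.

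The effector promoters were near or below the median. Bax (chromosome 7, 45461697 to 45466898, minus strand) had 3.85 in mouse 1 and 11.03 in mouse 2 at a peak 0.007 kb from its start. Bak1 (chromosome 17, 27019810 to 27029009, minus strand) had 4.07 and 3.59 at a peak 1.39 kb inside the gene and 3.12 and 10.8 at a peak 0.358 kb inside, so its highest peak was not the same site in the mice. The second of these was also within 1000 bp of a start of Ggnbp1.

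**Figure D1:**
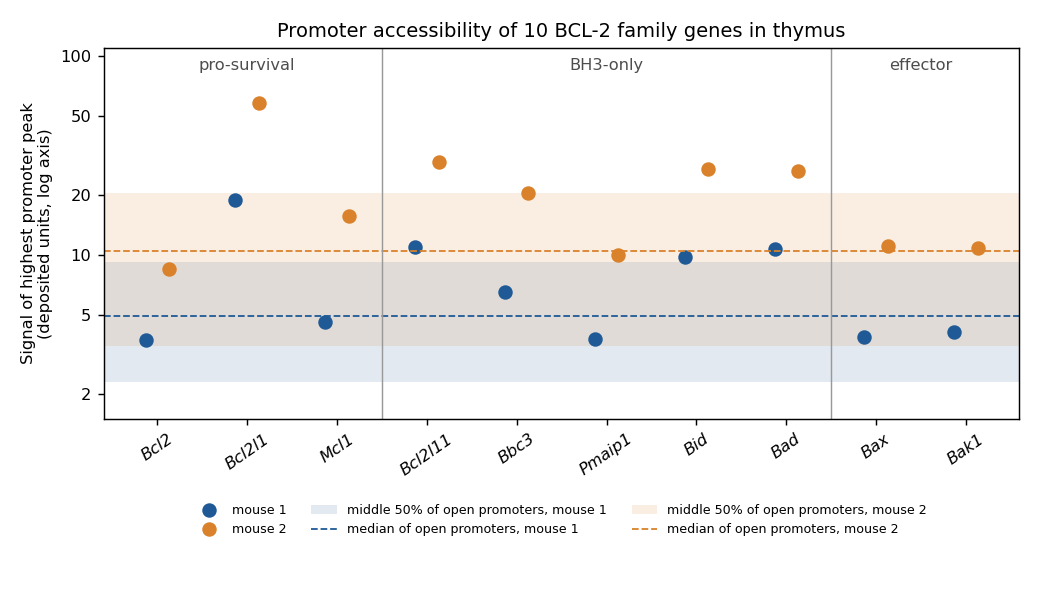
Signal of the highest promoter peak of each gene (deposited units, log axis) in mouse 1 (blue) and mouse 2 (orange), each point 1 library. Dashed lines are the medians of open promoters (4.94 and 10.4) and bands their quartiles. Bcl2l1 was highest in both mice and Bcl2 lowest, and every gene was higher in mouse 2.

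As a group, 5 of the 10 promoters (Bcl2l1, Bcl2l11, Bbc3, Bid and Bad) were above the open-promoter median in both mice. Of all 21755 protein-coding genes 5773 (26.5%) were, but that total includes genes without a promoter peak, which cannot pass. Since all 10 members had a promoter peak in both mice, the closer background is 5773 of the 12303 genes that had one. Beside that share, 5 of 10 is no clear excess. Without Bad, whose peak also lies at a Gpr137 start, the count was 4 of 9. The median over the 10 was 5.53 in mouse 1 and 18.1 in mouse 2, at percentiles 54.0 and 69.5. In both mice the order ran from Bcl2l1 and Bcl2l11 through Bad, Bid, Bbc3 and Mcl1 to Bak1, Bax, Pmaip1 and Bcl2, except that Bad and Bid, and Bak1 and Bax, changed places. Those neighbours differed by less than the mice did: Bid averaged 18.4 ± 12.2 (SD, n = 2) and Bad 18.6 ± 11.1, and Bak1 averaged 7.44 ± 4.76 and Bax 7.44 ± 5.08. The SD of each mean is wide because mouse 2 was higher at every promoter, from 2.27-fold at Bcl2 to 3.43-fold at Mcl1.

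The evidence for cutting, given by the authors as an FDR for each run of bases, was followed for 1500 bp on either side of each start. The lowest FDR near the start ran from 1.66e-24 at Bak1 to 3.00e-97 at Bcl2l11 in mouse 1, leaving out Bcl2l1, where 32 runs were listed at 0. In mouse 2 it ran from 2.09e-57 at Bax to 2.00e-274 at Bcl2l1. At Bcl2l1 the mouse 1 values changed abruptly between adjoining runs 395 bp inside the gene, from an FDR of 6.93e-89 to 0, a change of 211.8 in minus log10 FDR with 0 counted as 300. The largest change between adjoining runs in mouse 2 was 13.1. The cause was not tested. These 10 stretches held 169 footprints in mouse 1 and 156 in mouse 2. Of these, 66.9% and 69.9% overlapped a footprint of the other mouse, against 55.6% and 45.2% of all footprints in the genome. Promoters of other genes were not counted, so whether such shares are usual for promoters was not tested.

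**Figure D2:**
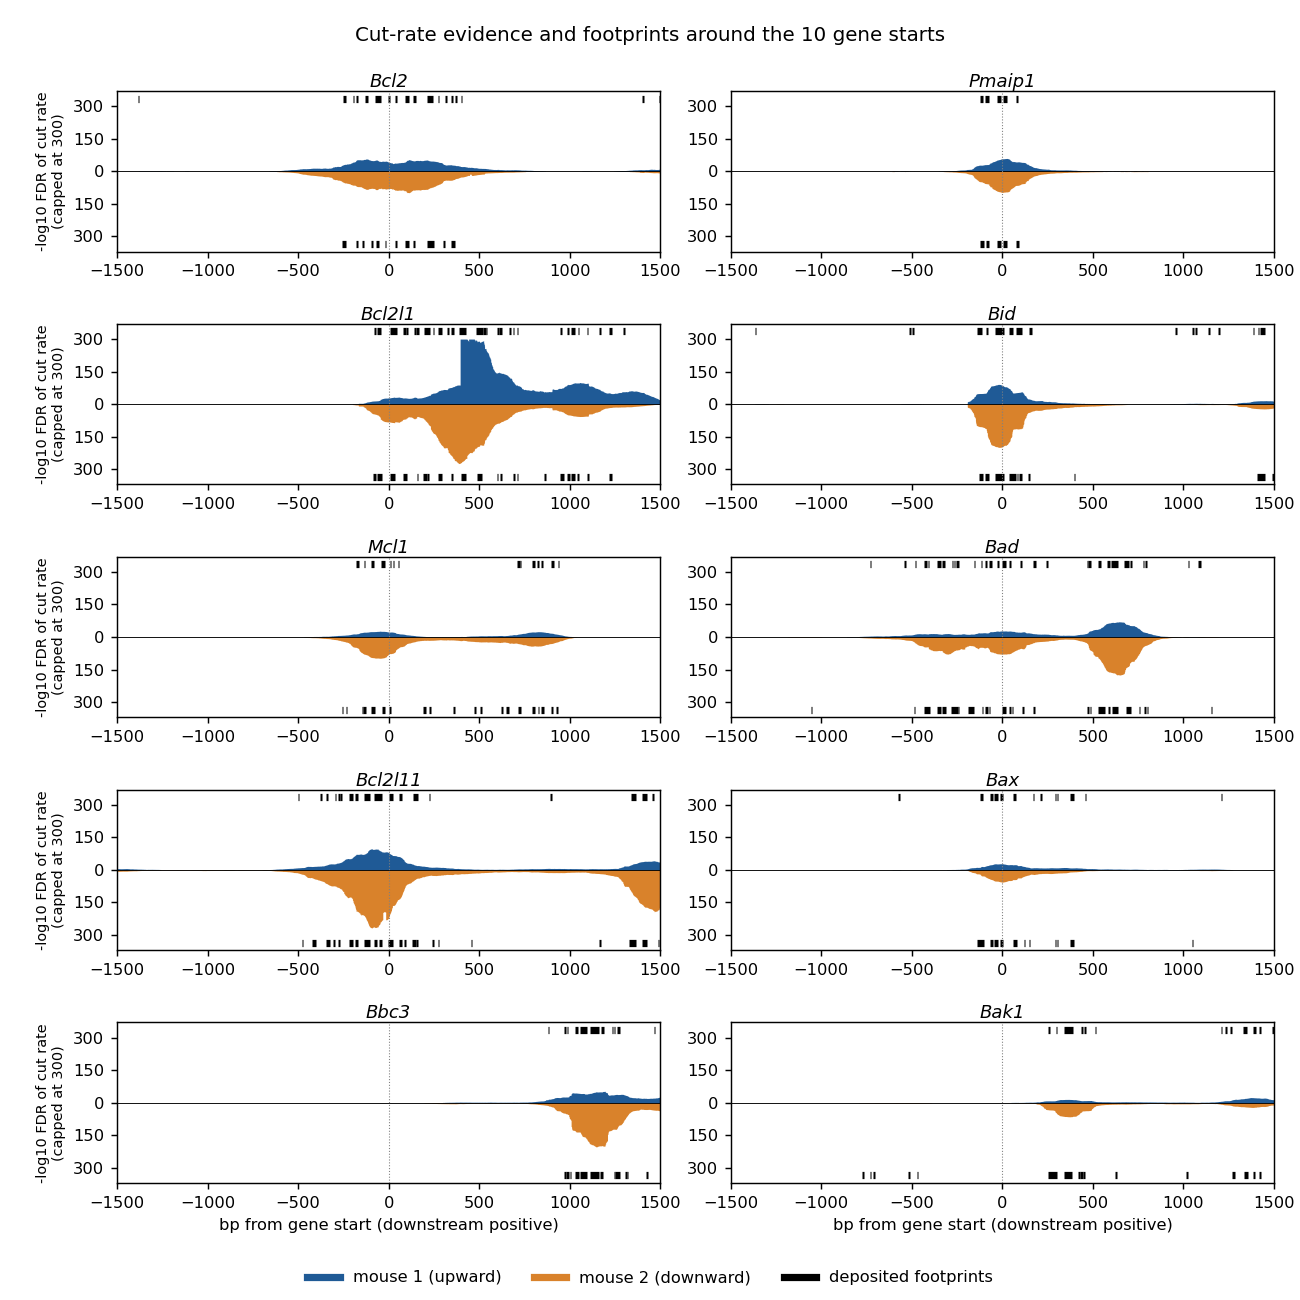
Minus log10 FDR of the cut rate (vertical axis, capped at 300) against distance from the 5′-most start (bp, downstream positive), mouse 1 upward in blue and mouse 2 downward in orange, with deposited footprints as black marks. The strongest evidence lay by the start at Bcl2, Mcl1, Bcl2l11, Pmaip1, Bid and Bax and farther inside the gene at Bcl2l1, Bbc3, Bad and Bak1. The step at 395 bp in mouse 1 Bcl2l1 is visible.

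Around the promoters, the 10 windows held 189 peaks in mouse 1 and 220 in mouse 2. Peak density exceeded the median of all protein-coding genes in both mice at 9 of the 10 genes, against 45.2% of all genes, the exception being Pmaip1. The median density of the members was 13.8 peaks per 100 kb in mouse 1 and 17.2 in mouse 2, and over all genes it was 4.17 and 4.82. Regions of significant cutting covered a median of 8.77% and 8.99% of the member windows, against 2.60% and 2.74% of all windows. These backgrounds include genes without a promoter peak, whereas all 10 members had one. Windows of genes with a promoter peak were not counted apart, so whether such densities are usual for them was not tested. Joined over the mice, the peaks made 255 sites. Of these, 45 (17.6%) lay at a member's own starts, 78 (30.6%) at the start of another gene only and 132 (51.8%) away from all starts, where a site within 1000 bp of a start counts as at that start.

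Many of these sites lay at neighbouring genes. The strongest site of the window was the member's own promoter at Bcl2l1, Bcl2l11, Pmaip1 and Bid. In the other 6 windows it was a neighbour's promoter. The Bad window held 31 peaks in mouse 1 and 45 in mouse 2 but also 14 other protein-coding genes. Of its 50 sites, 34 were at starts of other genes alone, non-coding genes included, led by the nuclear receptor gene Esrra (34.8 and 73.9). In the Bax window 11 of 18 sites were of that kind, led by the site at Gys1 and Ruvbl2 (28.9 and 57.5), and no site away from starts was found in both mice. By contrast Pmaip1 had no other protein-coding gene in its window and only 4 and 3 peaks. Its sites away from starts were weak, at 12.3 kb downstream (0.664 and 0.489) and 47.9 kb upstream (0.434 and 0.685).

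**Figure D3:**
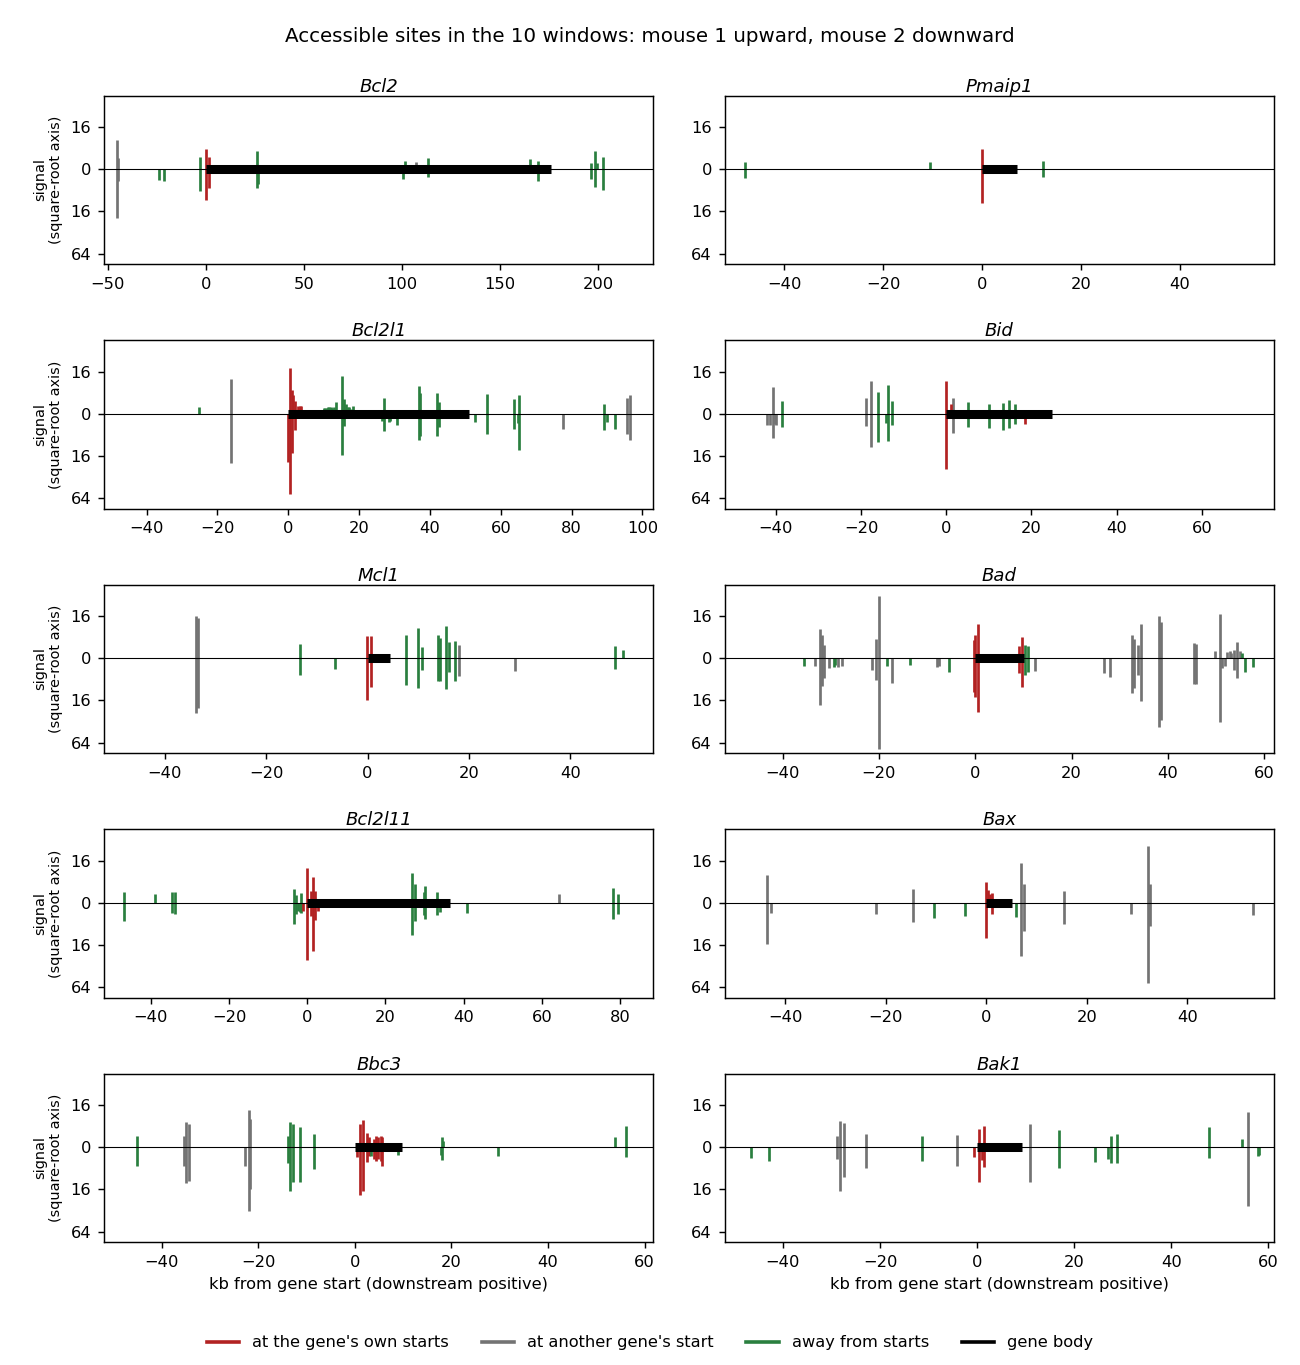
Sites in each window by distance from the gene's 5′-most start (kb, downstream positive), with peak signal on a square-root axis upward for mouse 1 and downward for mouse 2. Red lines are sites at the gene's own starts, grey at another gene's start, green away from starts, and black bars are gene bodies. Mcl1 has a group of green sites downstream, Bad is surrounded by grey sites and Pmaip1 has few sites of any kind.

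Mcl1 had a group of sites downstream of the gene: between 7.51 and 17.2 kb from its start, 8 sites away from annotated starts were found in both mice. The distance limits of 5 and 18 kb were chosen after seeing these sites. The site at 15.6 kb had 9.35 in mouse 1 and 8.33 in mouse 2, the site at 10.03 kb had 8.51 and 7.72, and the site at 7.51 kb had 4.91 and 6.47. Another at 13.9 kb had 4.94 and 4.75. These 4 of the 8 exceeded the Mcl1 promoter in mouse 1 (4.58), and none of the 8 did in mouse 2 (15.7). Single sites of the 8 were higher in either mouse. Median GC content was 52.4% in the downstream sites and 71.2% at the promoter. These 8 sites held 40 footprints in mouse 1, of which 30 overlapped a footprint of mouse 2. The nearest start to the sites at 10.03 and 15.6 kb was that of Adamtsl4, and the files do not assign a site to a gene.

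The strongest Bcl2l1 site away from starts, the intron sequence printed above, lay 15.2 kb inside the gene with 13.1 in mouse 1 and 15.4 in mouse 2. A second intronic site 37.0 kb inside had 7.19 and 6.12, and one beyond the 3′ end, 65.1 kb from the start and nearest to Cox4i2, had 3.33 and 11.9. The strongest intronic site sat in a stretch where the mice differed. From 10 to 19 kb inside the gene (limits chosen after seeing the data; sites from chr2:152813301-152821565) there were 16 sites, of which 2 were found in both mice, 14 in mouse 1 only and 0 in mouse 2 only. The 14 had signals of 0.249 to 1.16 with a median of 0.380. Only 1 of them touched a region of significant cutting in mouse 2, and 10 of the 14 held no footprint in mouse 1. Significant cutting covered 96.6% of the 8.27 kb stretch in mouse 1 and 20.3% in mouse 2. The longest continuous region in it was 5834 bp in mouse 1, a length reached by 11 of 175838 regions in that library. Without the 16 peaks of these 14 sites the Bcl2l1 window held 22 peaks in mouse 1 instead of 38, against 27 in mouse 2. The cause of the difference was not tested.

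**Figure D4:**
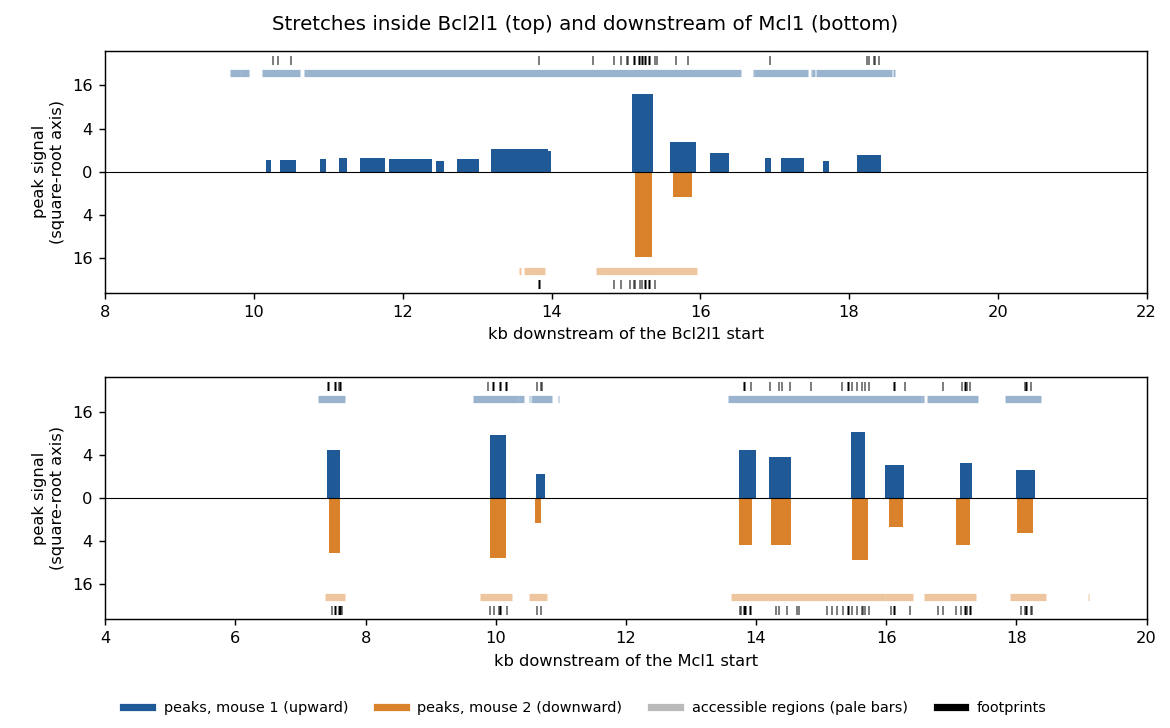
Peaks (bars, signal on a square-root axis), accessible regions (pale bars) and footprints (black marks) inside Bcl2l1 (top) and downstream of Mcl1 (bottom), by distance from the start in kb, mouse 1 upward and mouse 2 downward. Weak mouse 1 peaks flank the shared Bcl2l1 site at 15.2 kb, whereas the Mcl1 sites match between the mice.

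Bcl2l11 had an intronic pair, at 26.9 kb (8.08 in mouse 1 and 9.47 in mouse 2) and 27.6 kb (3.35 and 2.92), joined in 1 accessible region of 1530 and 1636 bp. A further site 3.42 kb upstream, within an intron of the neighbour Acoxl, had 1.74 and 4.04. In Bcl2 the intronic site 26.0 kb inside had 3.18 and 3.08, close to its promoter signal in mouse 1. A site beyond the 3′ end of Bcl2, 199 kb from the start, had 2.90 and 2.72, and one 3.14 kb upstream had 1.35 and 4.17. Bbc3 had 3 sites upstream, at 13.4 kb (5.71 and 16.8), 12.8 kb (4.91 and 10.7) and 11.4 kb (3.82 and 10.99), which were nearer to the start of Ccdc9 than to the 5′-most Bbc3 start. The first pair of them lay in 1 region of 1225 and 1516 bp.

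Upstream of Bid, a site 13.7 kb away had 7.59 in mouse 1 and 6.79 in mouse 2, and the Mical3 exon site 16.01 kb away had 4.18 and 7.21. Inside Bid the strongest site away from starts, 14.8 kb from the 5′-most start, had 1.81 and 1.89. At Bak1 the 3 strongest shared sites away from starts were in introns of Ggnbp1, at 16.9 kb (2.83 and 4.00), 28.8 kb (1.64 and 2.34) and 47.7 kb (3.85 and 1.00). The Bad window had 2 weak sites in exons of Plcb3 (1.53 and 2.52, and 1.27 and 1.71).

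Of the 189 window peaks of mouse 1, 146 (77.2%) overlapped a peak of mouse 2, against 80.8% of all mouse 1 peaks. Of the 220 window peaks of mouse 2, 147 (66.8%) overlapped a peak of mouse 1, against 66.1% of all mouse 2 peaks. Over all windows these shares were close to the background, and single windows spread widely. Mcl1 was shared in 93.8% and 88.2% of its peaks, and Bcl2l1, with the stretch described above, in 42.1% and 59.3%. Window footprints were found in the other mouse in 59.7% of 1028 cases from mouse 1, against 55.6% of all its footprints, and in 53.8% of 1105 cases from mouse 2, against 45.2% of all. At Bcl2 the share was 42.1% of mouse 1 footprints and 55.4% of mouse 2 footprints. At Bad it was 78.4% and 52.1%, so the order of these genes differed between the mice.

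Sites of 1 mouse were mostly weak. The 40 sites of mouse 1 only had a median signal of 0.466, and 3 exceeded the median of all mouse 1 peaks (1.23). The highest was 3.36, 1.34 kb inside Bcl2l1. Another of the 3 was a Bax promoter peak of 1.56, 0.287 kb inside the gene, and the other was a Bcl2l1 intronic peak of 1.28. The 71 sites of mouse 2 only had a median of 0.922, and 17 exceeded the median of all mouse 2 peaks (1.45). The Bcl2l1 start peak of 20.6 was the highest, followed by a promoter peak of Catsperz in the Bad window (5.27). In the other mouse, 17 of the 40 and 34 of the 71 touched a region of significant cutting, and 9 and 23 overlapped an entry of the longer peak list.

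Differences in height between the mice varied with base composition. Of the 144 sites found in both mice, 122 were higher in mouse 2. At the 31 shared sites on the members' own starts, with a median GC content of 67.1%, the median log2 ratio of mouse 2 over mouse 1 was 1.24. At the 66 shared sites away from starts, with a median GC content of 53.7%, it was 0.34. Over all 46586 shared sites of the genome the median was 0.76, and it rose from 0.08 in the lowest of 5 equal groups by GC content to 1.43 in the highest. After subtraction of the median of all sites the member promoters stood at 0.48 and the member sites away from starts at -0.42. After subtraction of the median of sites in the same GC group these values were -0.0083 and -0.19.

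**Figure D5:**
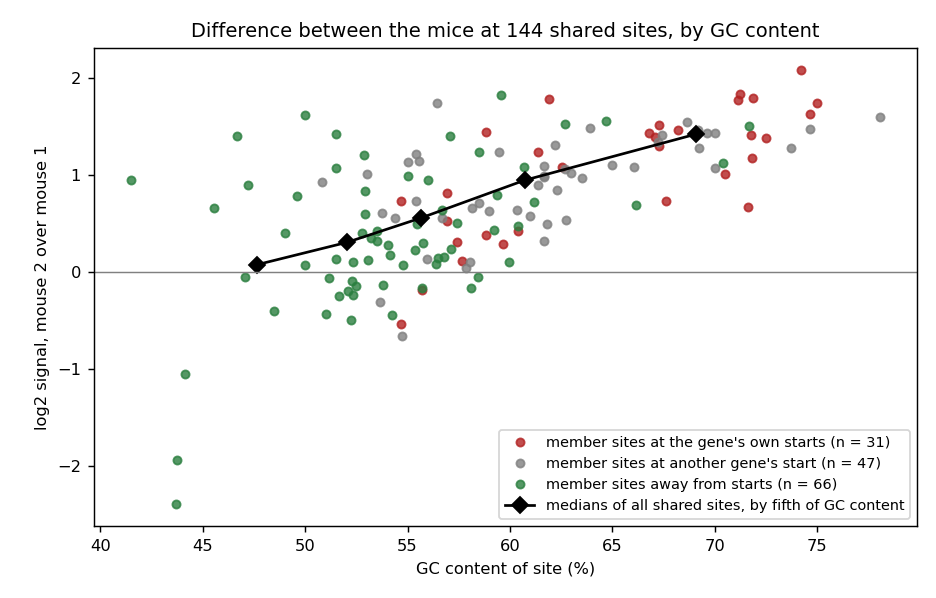
Log2 ratio of signal, mouse 2 over mouse 1, against GC content (%) at the 144 member sites found in both mice, coloured by place, with the genome-wide medians of all shared sites in 5 equal groups by GC content as black diamonds. The diamonds rise from 0.08 to 1.43. Sites at the members' own starts had a median GC content of 67.1%. Their median distance from the median of the same GC group was -0.0083, with single sites from -1.09 (Bbc3) to 0.84 (Bak1).

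Other genes of the pathway were described from lists written with earlier results of these data known. Of 15 other BCL-2 family genes, 12 had a promoter peak in both mice and 1 (Bcl2l10, a pro-survival gene) in neither, and the median signal was 1.40 in mouse 1 and 2.16 in mouse 2, below the 5.53 and 18.1 of the members. The highest were Bnip3l, a mitophagy receptor gene (22.2 and 43.9), and Bcl2l12 (9.65 and 21.5). The lowest apart from Bcl2l10 was the effector gene Bok, with no promoter peak in mouse 1 and 0.489 in mouse 2. Bcl2a1a, Bcl2a1b and Bcl2a1d are near-identical copies, so their values are uncertain.

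Downstream of the effectors, all 17 genes of the caspases, the apoptosome and their inhibitors had a promoter peak in both mice, with a median of 6.37 in mouse 1 and 19.3 in mouse 2. The highest were Apaf1, the scaffold of the apoptosome (13.9 and 48.1), and Diablo, which encodes an antagonist of caspase inhibitors (14.7 and 39.5). The caspase inhibitor gene Xiap was among the lowest (1.61 and 4.28). All 12 genes of the p53 axis, the pathway that controls Bbc3 and Pmaip1 after DNA damage, also had one, with a median of 5.47 and 12.03. Trp53inp1 (12.1 and 35.4) and Sesn2 (9.93 and 28.5) were highest, and Perp (1.06 and 2.79) and Phlda3 (1.08 and 3.59) lowest. The share over all protein-coding genes, 56.6%, is the background for these counts.

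The thymus label was checked against marker genes. All 12 thymocyte genes checked, among them Rag1, Cd8a and Ptcra, had a promoter peak in both mice, with a summed signal of 97.0 in mouse 1 and 133 in mouse 2. The same held for 1 of 5 genes each of B cells (Pax5), myeloid cells (Itgam) and thymic epithelium (Epcam), and for 3 of 5 of stroma and endothelium, with summed signals of 0.976 to 7.71 in mouse 1 and 1.41 to 10.3 in mouse 2. Sums depend on list length. The median per gene was 8.39 and 9.83 for thymocytes, 1.05 and 3.11 for stroma and endothelium, and 0 in both mice for each other list. The thymocyte median was above the open-promoter median in mouse 1 (4.94) and below it in mouse 2 (10.4). Cd4 (2.44 and 2.70) and Dntt (2.20 and 2.37) were the lowest of the thymocyte genes. The highest single gene outside the thymocyte list was Pecam1 in mouse 1 (5.44) and Pax5 in mouse 2 (6.75). Without a promoter peak in either mouse were Cd79a and Ms4a1 of B cells, Adgre1, C1qa and Csf1r of myeloid cells, Foxn1, Krt5, Krt8 and Psmb11 of thymic epithelium, Cdh5 and Col3a1 of endothelium and stroma, and Alas2, Hba-a1, Hbb-bs and Klf1 of erythroid cells. How much of a member's signal came from these other cells was not tested. No read total was found in the labels or files. All mouse 1 signals were whole multiples of 0.00638, within 0.1 of that step, and 99.98% of mouse 2 signals were whole multiples of 0.00504 within the same tolerance. Member promoter peaks held 584 to 2951 and 1676 to 11582 such steps.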

How the data were processed

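DNase-seq libraries of thymus from 2 mice, separate animals per the labels (the listed donor is the strain), were analysed as 1 group. Per the text deposited with the files, the authors derived peaks and cut rates from each library's filtered alignments on mm10. An aligner, a caller or a threshold was not given in the sources used here. The deposited signal is a depth-normalised peak height whose scale is not named. Each run of bases in the cut-rate lists carries a p-value, an FDR that the authors computed and listed only below 0.05. The footprint lists have 1 other deposited value, a constant, so only positions were used. The shorter peak list (59484 and 72913 peaks) was the main one.

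Windows, promoters (1000 bp on either side of any annotated start), overlaps (at least 1 bp) and motifs were computed with Python 3.11.15, pandas 2.3.3, pysam 0.24.0 and bedtools 2.31.1 from GENCODE M21 and the GRCm38 reference. Touching runs of significant cutting were merged into regions. The log2 ratio of a site used the highest peak of each mouse in it. Interval and motif counts were tested on simulated data and against bedtools. Named are all 10 members, the 2 highest and 2 lowest genes of each other list, genes without a promoter peak in either mouse, the 3 strongest shared sites of each window away from starts, and single-mouse sites above that mouse's median. The sites printed as sequence were picked from these. The members and lists were chosen with earlier results of these data known, so values are descriptions without tests. Alternatives were other list, window, promoter and overlap settings, subtraction of the GC trend and leaving out each mouse. Sequence of 1 member and some genes of the other lists are not reported here.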

Additional observations from a re-analysis of the deposited data

How the results depend on the processing

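All 10 members kept a promoter peak in each animal under each of 4 alternatives (promoters of 500 or 2500 bp, the longer list, and the 5′-most start alone). With the 5′-most start alone, Bbc3 passed in mouse 1 only through the site centred 1.14 kb inside the gene. The edge of that site lay within 1000 bp of the start. Peaks in the windows changed from 189 and 220 to 100 and 101 with 10 kb on either side and to 77 and 66 in the gene bodies alone. The added alternative without the Bcl2l1 run, chosen after seeing the data, gave 173 in mouse 1. Sharing was also counted between peaks above the median signal of all peaks in each library, 114 window peaks in mouse 1 and 134 in mouse 2. Of these, 91.2% and 76.9% overlapped an above-median peak of the other mouse. The share over all peaks with that filter was not counted. Requiring 50% overlap changed the shares of footprints to 56.1% and 50.1%. Median peak density, 15.6 per 100 kb in the mean of both mice, was 19.5 with the longer list and 25.2 with 10 kb windows, and 13.8 to 17.2 when 1 mouse was left out. The median promoter signal of the members, 11.8 in the mean, was 5.53 without mouse 2 and 18.1 without mouse 1, and the order of 44 of 45 pairs of members matched the order by the mean in either case. Summing all promoter peaks in place of the highest raised the mean of Bcl2, Bcl2l11, Bbc3 and Bad by more than its SD over the 2 mice. The log2 ratio of mouse 2 over mouse 1, taken relative to the median of all shared sites, was 0.48 at member promoters and -0.42 away from starts, and relative to sites of the same GC group it was -0.0083 and -0.19. No paired analysis was possible because the 2 libraries form 1 group. With 1 library per mouse and no read totals, the spread between animals cannot be separated from that between libraries.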
